A study of Homo sapiens with 40 samples.

Results

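The regions described here are 11151 stretches of the genome that carried a peak of histone H3 lysine 27 trimethylation (H3K27me3) in control A549 cells and a newly called peak of histone H3 lysine 9 trimethylation (H3K9me3) after disruption of SETDB1. They were chosen by 4 deposited peak lists, 1 per mark and genotype: a control H3K27me3 peak with no overlapping knockout H3K27me3 peak was taken if it overlapped, by at least 1 bp, a knockout H3K9me3 peak that itself had no overlapping control H3K9me3 peak. They made up 26.1% of the 42708 control-only H3K27me3 peaks (95% Wilson interval 25.7 to 26.5%) and 12.3% of all 90822 control H3K27me3 peaks. In length they were 38.3 Mb, or 10.3% of the 370.6 Mb under control H3K27me3 peaks. They are called switched regions below, a name for the rule and not for a mechanism. Among control H3K27me3 peaks that kept an overlapping knockout H3K27me3 peak, 6065 also met a knockout-only H3K9me3 peak and 42049 did not. Of the 30367 knockout-only H3K9me3 peaks, 23.9% met a switched region. Because the 4 lists chose the regions, every value from those lists is a description and carries no test.

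H3K27me3 is written by Polycomb repressive complex 2 (PRC2), whose catalytic subunit is EZH2 or EZH1, and it marks silent genes and broad facultative heterochromatin. H3K9me3 is the mark of constitutive heterochromatin and silenced repeats, where it is bound by HP1 proteins. It is written by SETDB1, which KAP1 and the HUSH complex bring to repeats and zinc finger gene clusters, and by SUV39H1 and SUV39H2. Hi-C divides the genome into an active A compartment and an inactive B compartment, and into topologically associating domains (TADs) within which contacts are frequent.

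A549 is an established human lung adenocarcinoma line with the K-RAS G12S allele, obtained from ATCC. Control cells (CT) were compared with SETDB1 knockout cells (KO) made with CRISPR/Cas9 from a PX458 plasmid, and no other treatment separated the groups. Whether the knockout is a clone or a pool, and what the control cells received, is not given in the sources used here. Each genotype had 3 RNA-seq libraries, 2 in situ Hi-C libraries, and 2 ChIP-seq libraries each for H3K27me3, H3K9me3, H3K4me3, H3K27ac and CTCF, but only 1 peak list per mark and genotype. Peak shares therefore have a 95% Wilson interval for counting error alone and no replicate error, and the absence of a peak is the absence of a call, not of signal. The lists hold no scores or depths, so how far sequencing depth moved the calls is unknown. The labels do not say that libraries came from separate cultures, so p-values measure the spread between libraries only. Positions are on hg19 and count from 1.

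SETDB1 mRNA was checked first. It stood at 37.4, 39.5 and 38.7 CPM (counts scaled to a common library size) in the control libraries and at 23.4, 21.2 and 21.0 CPM in the knockout libraries. The groups did not overlap, and the knockout mean was 56.8% of the control mean (log2 fold change -0.82, SE 0.060, adjusted p = 1.7e-12, edgeR's quasi-likelihood test over 17767 genes). The lesion that Cas9 left is not visible in counts per gene, so this checks the labels and not the loss of protein. RNA-seq totals ran from 18065062 to 48364919 counts. The epithelial markers KRT8, KRT18, KRT19, EPCAM, CDH1 and KRT7 were all present. All 6 were called higher in the knockout, where 32.8% of all tested genes were, with log2 fold changes from 0.10 for KRT7 to 2.49 for KRT19. Surfactant genes of alveolar type 2 cells were near 0 in both genotypes, SFTPC at 0.0809 and 0.115 CPM, although the lipid transporter gene ABCA3 of the same list stood at 64.6 and 83.2 CPM. Of the other cell types, fibroblast COL1A2 and DCN and T-cell CD3E had no count, the means of PTPRC and VWF were at or below 0.0325 CPM in both genotypes, COL1A1 was at 3.10 and 3.83 CPM, and the endothelial cadherin CDH5 rose from 0.288 to 4.52 CPM.

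The first question was how closely the new H3K9me3 followed the outline of the lost H3K27me3. The new mark usually engulfed the old one and seldom just touched it. Of the switched regions, 6451 (57.9%) lay wholly inside 1 knockout-only H3K9me3 peak, and 9088 (81.5%) had at least 50% of their length in such peaks. Summed over all of them, 73.7% of the length was inside. At the other end, 326 regions (2.92%) had under 10% of their length inside, so the label of a switched mark holds for them only at an edge. Among the 10332 regions that met exactly 1 new peak, 62.4% were inside it, 33.2% crossed 1 of its edges and 4.39% contained it. A further 819 regions (7.34%) met 2 or more new peaks, and none met more than 4. H3K9me3 had already been called on a portion of 494 regions (4.43%) in control cells.

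The threshold of 1 bp left some regions on either side by a narrow margin. The 3 regions just inside were chr9:13854425-13856321 with 2 bp of shared sequence, chr1:152992945-152993184 with 3 bp and chr3:168962875-168964201 with 4 bp. Just outside were chr2:163417200-163417832, which touched a new H3K9me3 peak without sharing a base, chr2:129653135-129654030 at a gap of 2 bp and chr7:126299693-126300562 at a gap of 3 bp. In all, 135 switched regions shared under 100 bp with a new peak, and 131 other control-only H3K27me3 peaks lay within 100 bp of one.

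Switched regions were of middling width for this mark. Their median width was 2459 bp, with an interquartile range of 1388.5 to 4335.5 bp and extremes of 168 and 44560 bp. Control-only peaks that met no knockout H3K9me3 peak were narrower, at a median of 1579 bp, and those that met a knockout H3K9me3 peak with a control partner had a median of 2569 bp. The new H3K9me3 peaks were wider than the regions they met: the 7256 that held a switched region had a median width of 6051 bp, against 3137 bp for the other knockout-only H3K9me3 peaks, and the widest reached 163522 bp. A wider peak has more chance to meet another by position alone, so these widths are bound up with the rule. Most of the 7256 held a single switched region (4723), 2267 held 2 to 4, and 266 held 5 or more.

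The extremes show the range of arrangements. The new H3K9me3 peak with the most switched regions, chr1:176726916-176850780, was 123.9 kb long in the knockout and held 25 separate control H3K27me3 peaks, all of them switched, which had covered 41.9% of it. In control cells no H3K9me3 peak, and in knockout cells no H3K27me3 peak, fell within it. Another, chr13:39168105-39259128, joined 14 such peaks under 91.0 kb. The widest switched region, chr2:41517900-41562459, was 44.6 kb long and had 70.8% of its length in new H3K9me3. By contrast, the fourth widest, chr2:29624415-29661579, had only 7.71% of its 37.2 kb in knockout-only H3K9me3, while knockout H3K9me3 peaks of any kind covered 88.9% of it. That region is a member by the rule, yet most of the H3K9me3 over it in the knockout belonged to peaks that had a partner in control cells.

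Around the switched regions the exchange of marks reached far beyond the peak itself. At the region's centre, knockout H3K9me3 covered 82.4% of regions, and at 10 kb away, averaged over both sides, it still covered 69.8%. At 100 kb away the figure was 60.2%. Control H3K9me3 covered 1.08% of the centres, 4.19% of positions at 10 kb and 6.33% at 100 kb. Control H3K27me3 fell to 39.9% at 10 kb and 36.8% at 100 kb, where knockout H3K27me3 covered 3.69% and 7.77%. The surroundings of control-only H3K27me3 peaks that met no knockout H3K9me3 looked different: knockout H3K27me3 covered 15.9% of positions at 10 kb, knockout H3K9me3 covered 8.42%, and control H3K9me3 had covered 29.2% of the peak centres. Both classes were chosen by these same lists, so their contrast at and near the centre is partly fixed by the choice. Lost peaks that met a knockout H3K9me3 peak with a control partner were not set beside them. The reach of the exchange is therefore not shown to be particular to switched regions. The plot of coverage against distance shows switched regions and lost peaks without knockout H3K9me3.

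**Figure D1:**
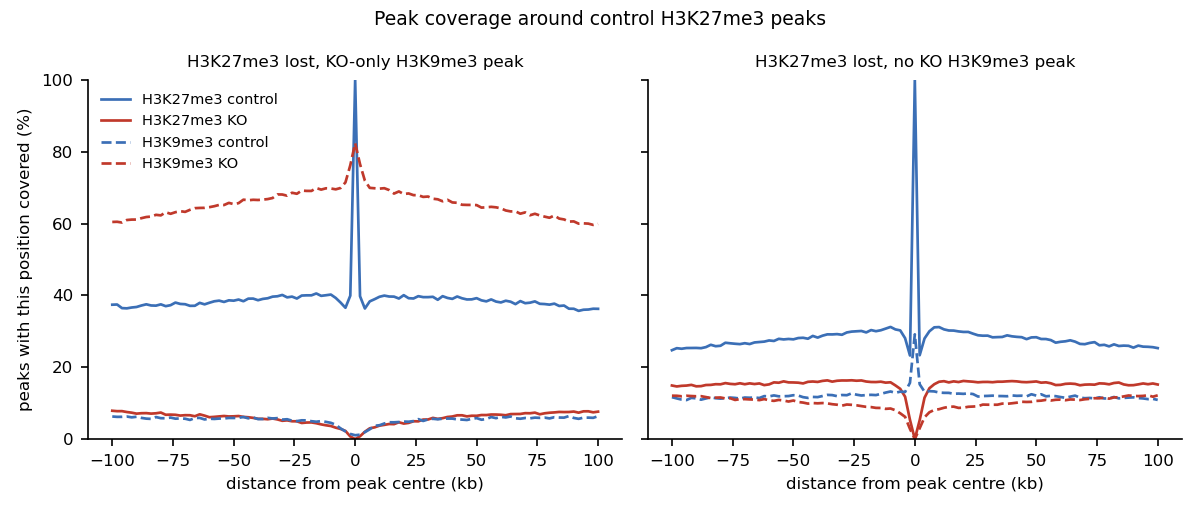
Percent of regions whose position is covered by a peak, against distance from the peak centre in kb, for switched regions (left) and for control-only H3K27me3 peaks with no knockout H3K9me3 peak (right); blue lines are control and red lines knockout, solid lines H3K27me3 and dashed lines H3K9me3. On the left the knockout H3K9me3 line stays at 60.2% at 100 kb, and on the right it is at 12.1% there.

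The distances between peaks tell the same in kb. From a switched region to the nearest H3K27me3 peak left in the knockout the median gap was 63.1 kb, against 21.3 kb for the other control-only peaks. Only 16.2% of switched regions had a knockout H3K27me3 peak within 10 kb, against 36.9% of the others, and 36.9% against 22.1% had none within 100 kb. The nearest control H3K9me3 peak was a median of 20.2 kb away, against 2.66 kb for the others. The rule itself keeps members off most control H3K9me3 peaks, so this last gap is partly fixed by the choice.

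Switched regions came in runs. The median gap between neighbours was 6.15 kb, and 59.4% of neighbouring pairs were within 10 kb. Spacing was not measured for the other control H3K27me3 peaks, so this closeness is not shown to be particular to switched regions. Control H3K27me3 covered 39.9% of positions at 10 kb from switched regions and 31.2% at 10 kb from lost peaks without knockout H3K9me3. When neighbours were joined across gaps of up to 100 kb as long as no kept H3K27me3 peak stood between them, 2191 runs resulted. Every control H3K27me3 peak within a run is thus lost by construction, switched or not. Of these, 873 were single regions and 1013 held 2 to 9. The 305 runs of 10 or more held 6339 regions, or 56.8% of all, and 195 runs spanned at least 200 kb. Regions within a run share their surroundings and are not independent of each other, which the counting intervals do not allow for.

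The longest run, chr6:124132076-125152324, spanned 1020 kb and held 79 switched regions. Control cells had 110 H3K27me3 peaks in it, covering 39.3% of its length, and knockout cells had 0. H3K9me3 peaks covered 1.14% of it in control and 85.8% in knockout cells. It had no H3K27ac peak in either genotype, 4 H3K4me3 peaks in control against 1 in knockout, and 1 against 2 CTCF peaks. A map of this run places the peaks of both marks by distance from its centre.

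**Figure D2:**
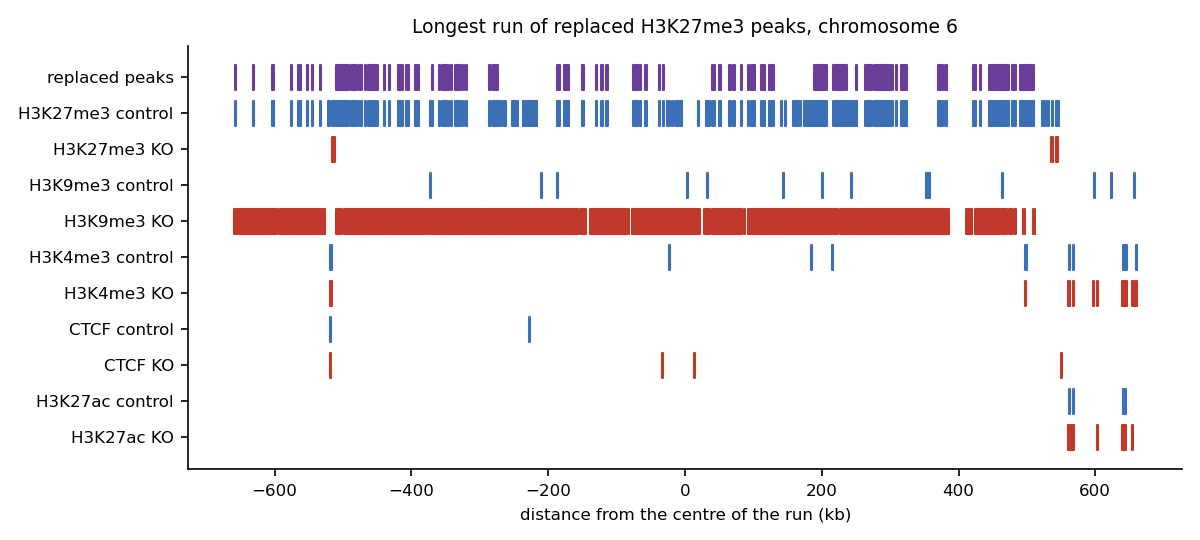
Peaks of each mark and genotype along the longest run, by distance from its centre in kb, with the switched regions on a track of their own; peaks narrower than 1.5 kb are drawn at that width so that they can be seen. Within the run the control H3K27me3 track holds 110 peaks and the knockout track none, while H3K9me3 coverage goes from 1.14% to 85.8%.

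The next runs had the same make-up. The run chr4:79969121-80805347 spanned 836 kb with 72 switched regions; its 78 control H3K27me3 peaks covered 23% of it and the knockout list had none there. H3K9me3 coverage in it was 1.05% in control and 86.4% in knockout cells. The run chr13:96779100-97483392 spanned 704 kb with 59 switched regions. Its H3K27me3 coverage was 33.7% in control and 0 in the knockout, and its H3K9me3 coverage 1.74% and 79.99%.

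Hi-C was not used to choose the regions and allowed a comparison over libraries. It asked in which compartment the switched regions lay and whether their compartment signal differed between genotypes. The deposited signal is a signed score per 100 kb bin whose scale is not given in the sources used here. Control H3K27ac peaks, a mark of active chromatin, covered 6.94% of positive bins and 0.437% of negative bins, so positive bins are called A and negative bins B. Nearly all switched regions were in B before the knockout, and their bins were deeper in B after it. In control cells 97.1% of them were in B (95% Wilson interval 96.8 to 97.4%, 10729 of 11047 with a tested bin), and in knockout cells 99.9%. Only 311 (2.82%) lay in bins that moved from A into B, and 9 (0.0815%) in bins that moved the opposite way. Over all bins the shares in B were 44.8% and 44.9%, with 5.95% of bins changing from positive to negative and 5.87% the other way. Lost peaks that met a knockout H3K9me3 peak with a control partner were much like the switched regions. Of these, 96.7% were in B in control and 99.8% in knockout cells, and 3.19% lay in bins that moved from A into B. The place in B was thus not particular to switched regions.

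The compartment also separated lost peaks by what followed them. Among control-only H3K27me3 peaks in B bins of control cells, 31.9% were switched regions (95% Wilson interval 31.4 to 32.4%, 10729 of 33607), against 3.84% of those in A bins (3.44 to 4.27%, 318 of 8288). Counting any knockout H3K9me3 peak, new or not, the shares were 69.1% in B and 9.03% in A. Kept H3K27me3 peaks went the same way. Of those that met a knockout-only H3K9me3 peak, 73.7% were in B in control cells, against 41.9% of the other kept peaks. The tie between B and new H3K9me3 was thus not particular to lost peaks.

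The 2869 bins that held the midpoint of a switched region had a mean signal of -0.494 and -0.489 in the 2 control libraries and of -0.815 and -0.810 in the 2 knockout libraries. The 2 genotypes did not overlap, and libraries of 1 genotype differed far less than the genotypes did. Means over all tested bins did not overlap either, at 0.0952 and 0.0984 in control and 0.0597 and 0.0584 in knockout libraries. The mean change was -0.321 and the median change -0.308, against -0.0378 and -0.0449 over all 26503 tested bins. An exact two-sided permutation test of 2 libraries against 2 gave p = 0.333, the smallest this design allows. Bin by bin, limma with Benjamini-Hochberg adjustment at 0.05 called 2409 of the 2869 bins lower in the knockout (84.0%) and 76 higher (2.65%). Over all tested bins it called 58.8%, with 37.3% lower and 21.5% higher. On each of the 23 chromosomes with such bins, their mean change was below that of all its bins.

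**Figure D3:**
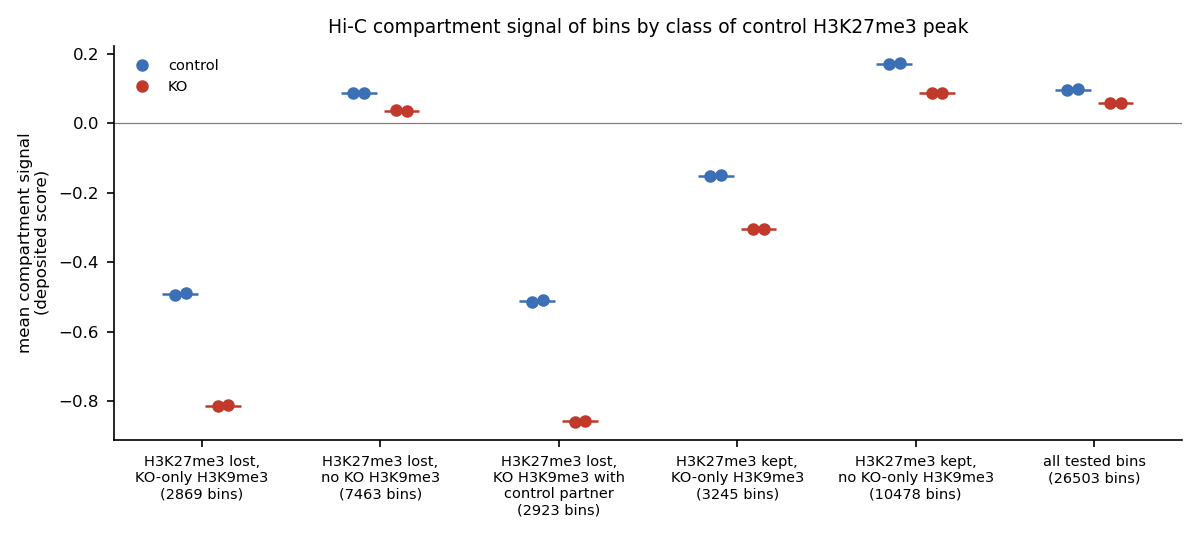
Mean compartment signal (deposited score, positive for A) of the bins that hold each class of control H3K27me3 peak; points are the 2 control (blue) and 2 knockout (red) Hi-C libraries and horizontal bars their mean. Bins of switched regions go from -0.492 to -0.812, and bins of lost peaks with no knockout H3K9me3 from 0.0874 to 0.0374.

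Bins of other control H3K27me3 peaks gave the context. Where the peak was lost and a knockout H3K9me3 peak with a control partner lay over it, the change was as large, at -0.346 with 83.2% of 2923 bins lower. So a drop of this size was not particular to newly called H3K9me3. Where the peak was lost and no knockout H3K9me3 peak met it, the change was -0.0500 and 43.2% of 7463 bins were lower. Kept H3K27me3 peaks that met a knockout-only H3K9me3 peak were in bins that changed by -0.154, and other kept peaks in bins that changed by -0.0840. The change of switched bins minus that of the lost class without H3K9me3 was -0.271, minus the lost class with partnered H3K9me3 0.0253, minus the kept class with new H3K9me3 -0.167 and minus the other kept class -0.237. Each of these 4 differences had an exact permutation p of 0.333, again the smallest possible, and 977 to 1679 of the switched bins also belonged to the class they were set against.

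The size of the drop went with how many switched regions a bin held. Bins with 1 region changed by -0.278, those with 2 to 4 by -0.323, those with 5 to 9 by -0.346 and those with 10 or more by -0.384. The share called lower went from 76.5% to 84.5%, 89.0% and 91.4% in the same order. The control level of these bins ran the same way, from -0.425 to -0.548, and its part in the trend was not tested. The 360 bins whose control H3K27me3 peaks were all switched had a smaller drop than switched bins as a whole. They changed by -0.281 from a control level of -0.658, and 83.9% were called lower.

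Control level was therefore held within ranges. Bins with a control signal above 0 had the largest drop, -0.622 over 156 bins, and went on average from 0.150 to -0.472. Between -0.5 and 0 the drop was -0.399 over 1155 bins, between -1 and -0.5 it was -0.235 over 1494 bins, and under -1 it was -0.179 over 64 bins. Bins with control H3K27me3 peaks but no switched region changed in the same ranges by -0.0838, -0.0124, 0.0389 and 0.0973. Control levels still differed within ranges. Above 0 the control mean was 0.150 in switched bins and 0.563 in the other bins, so that contrast is not matched for level. Between -0.5 and 0 the means were -0.300 and -0.231, and between -1 and -0.5 they were -0.681 and -0.691. Among bins negative in control cells, the 2713 with a switched region changed by -0.303 and the 4265 with H3K27me3 but no switched region by 0.0074. Their control means were -0.529 and -0.406.

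**Figure D4:**
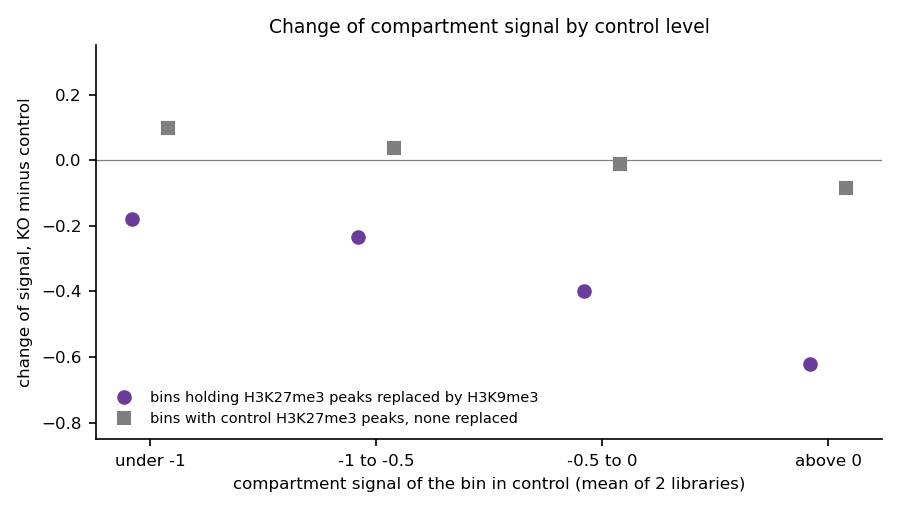
Mean change in compartment signal, knockout minus control, by range of the control signal, for bins with a switched region and for bins with control H3K27me3 peaks and none; points are means over bins and vertical bars the range over pairs of 1 knockout and 1 control library, mostly hidden by the points. Switched bins are below 0 in every range, from -0.179 to -0.622, and the other bins lie between -0.0838 and 0.0973. In the range above 0 the control means of the 2 kinds of bin are 0.150 and 0.563.

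Single loci varied around the average. In the longest run the signal was -0.639 and -0.633 in control and -1.03 and -1.02 in knockout libraries. The run on chromosome 13 went from -0.556 and -0.540 to -1.17 and -1.17. A larger drop was seen at the wide region chr2:29624415-29661579, at -0.0309 and -0.0668 in control and -0.866 and -0.857 in knockout libraries. Of the 5 new H3K9me3 peaks with the most switched regions, 3 had smaller drops. Over chr1:176726916-176850780 the signal was -0.665 and -0.654 against -0.737 and -0.706. Over chr1:158734458-158834535 it was -0.725 and -0.727 against -0.873 and -0.828, and over chr11:4654963-4795586 -0.830 and -0.793 against -0.889 and -0.947. The other 2 dropped more than the average, chr13:39168105-39259128 from -0.445 and -0.365 to -1.12 and -1.14.

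The H3K4me3, H3K27ac and CTCF lists were not used by the rule. H3K27ac sits on the same residue as H3K27me3, however, so its near absence from control H3K27me3 peaks is largely fixed by the choice: in control cells it met 0.173% or less of every class of these peaks. H3K4me3 marks active and poised promoters, H3K27ac marks active promoters and enhancers, and CTCF is the insulator protein that anchors loops and TAD borders. In both genotypes few switched regions met any of the 3. H3K27ac peaks met 0 of 11151 regions in control cells, which allows a share of up to 0.0269%, and 9 (0.0807%) in knockout cells. H3K4me3 met 1.51% in control (95% Wilson interval 1.3 to 1.75%, 168 regions) and 0.951% in knockout cells (0.787 to 1.15%, 106 regions). These counting intervals do not overlap, but they are no test of the decrease. They take regions as independent and leave out that the same regions were counted in both genotypes. CTCF met 1.498% (1.29 to 1.74%) and 2.02% (1.77 to 2.30%), more than the 0.654% and 1.11% of lost peaks without knockout H3K9me3 and less than the 2.44% and 3.58% of those with partnered knockout H3K9me3. Shares per peak depend on width, which differs between classes. Per Mb of peak length, CTCF peak centres numbered 4.15 in control and 5.67 in knockout cells at switched regions. The other 2 classes had 2.62 and 3.85 without knockout H3K9me3, and 6.33 and 9.95 with partnered knockout H3K9me3.

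The direction for H3K4me3 was opposite in lost peaks without knockout H3K9me3. There H3K4me3 went from 2.64% to 6.53% of peaks and H3K27ac from 0.173% to 2.07%. With partnered knockout H3K9me3 over the lost peak, H3K4me3 went from 1.78% to 0.712%, as in the switched regions. Kept peaks with a new H3K9me3 peak went from 6.68% to 10.2%. With 1 list per genotype these differences have no test over libraries. The plot of the 3 marks by class shows the shares with their intervals.

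**Figure D5:**
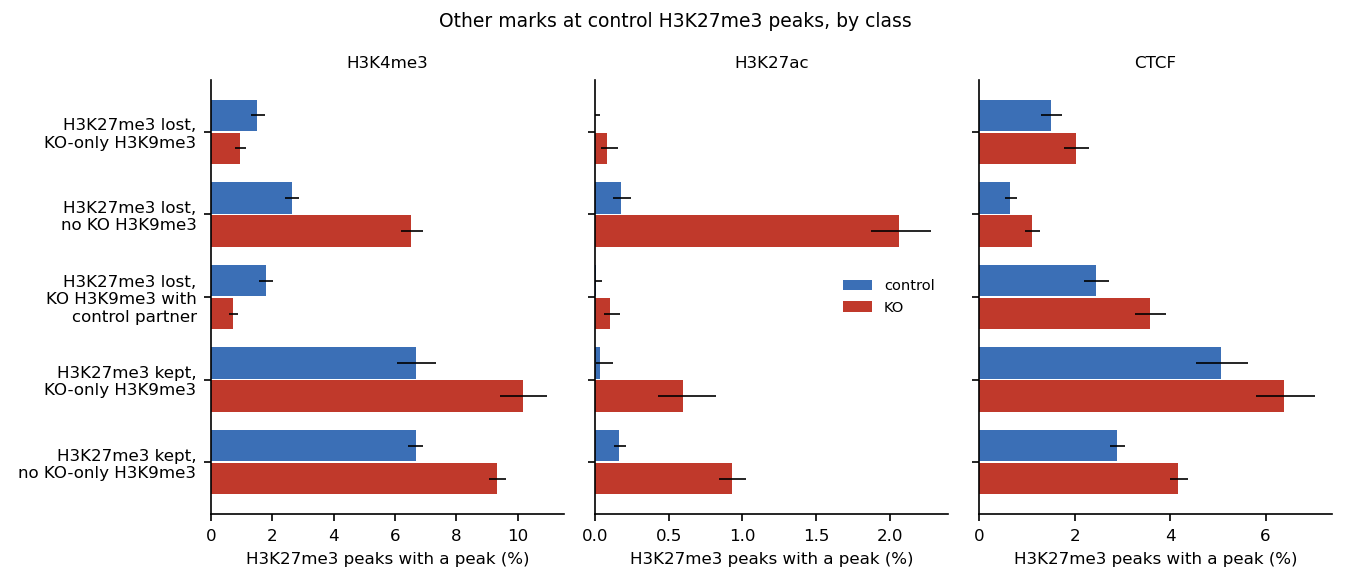
Percent of control H3K27me3 peaks in each class that overlap an H3K4me3, H3K27ac or CTCF peak, control in blue and knockout in red; bars start at 0 and error bars are 95% Wilson intervals for counting error. For switched regions H3K4me3 is at 1.51% and 0.951%, and for lost peaks without knockout H3K9me3 at 2.64% and 6.53%.

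Most of the CTCF peaks at switched regions in either genotype, and most of the H3K4me3 peaks there in control cells, had no partner in the other genotype; most knockout H3K4me3 peaks did. Of the 163 control H3K4me3 peaks there, 103 (63.2%) had no overlapping knockout peak, against 14.9% of all control H3K4me3 peaks and 11.4% of those at lost peaks without knockout H3K9me3. At lost peaks with partnered knockout H3K9me3 the share was 69.5%, so this was not particular to switched regions. Of the 108 knockout H3K4me3 peaks, 44 (40.7%) had no control partner, against 30.2% of the whole list. For CTCF, 159 of 172 control peaks (92.4%) and 221 of 232 knockout peaks (95.3%) lacked a partner, against 44.2% and 61.4% of the whole lists and 92.7% and 95.4% at lost peaks with partnered knockout H3K9me3. H3K4me3 peaks at switched regions were narrower than the list as a whole in control cells, at a median of 652 against 1153 bp, and CTCF peaks were 223 against 243 bp. Whether narrow peaks are called less reliably was not tested.

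TAD borders were scarce near switched regions. In control cells 4.09% of them (95% Wilson interval 3.74 to 4.47%) had their midpoint within 20 kb of a TAD edge, and in knockout cells 3.32% (3.00 to 3.67%). Lost peaks without knockout H3K9me3 stood at 10.5% and 10.6%, and kept peaks without new H3K9me3 at 12.3% and 12.4%. Lost peaks with partnered knockout H3K9me3 were nearest to the switched regions, at 2.82% and 2.00%. Of 6118 control TADs, 889 (14.5%) held a switched region, and the 373 with 10 or more held 82.8% of all switched regions. Those 373 TADs had a median length of 820 kb, against 300 kb for TADs with control H3K27me3 peaks and no switched region. Positions in longer TADs lie farther from an edge on average, and the part of length in the low share was not tested.

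The TAD with the most, chr1:57300001-58960000, held 90 switched regions among its 104 control H3K27me3 peaks. H3K9me3 covered 0.976% of it in control and 80.2% in knockout cells, and the knockout list had 1 H3K27me3 peak in it. TAD edges themselves were mostly kept. A knockout edge lay within 20 kb of 90.1% of the edges of TADs with 10 or more switched regions (95% Wilson interval 87.7 to 92.1%), against 95.5% (94.96 to 96.1%) for TADs that had control H3K27me3 and no switched region.

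Chromosomes differed in how many of their control-only H3K27me3 peaks were switched. The share was highest on chromosome 11 (38.0%, 865 of 2277), chromosome 13 (37.1%, 529 of 1426) and chromosome 1 (36.3%, 1324 of 3645). It was lowest on chromosome 19 (0.629%, 2 of 318), followed by chromosome 17 (7.37%, 56 of 760) and chromosome 15 (9.61%, 105 of 1093). The low shares had different make-ups. On chromosomes 17 and 15 most lost peaks met a knockout H3K9me3 peak that had a control partner (64.6% and 60.8%), and on chromosome 19 66.7% met no knockout H3K9me3 peak. Across the 23 chromosomes the share of switched peaks went weakly with the percent of bins in B (Pearson r = 0.444, Spearman rho = 0.395), given as a description because chromosomes share the same libraries.

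RNA-seq gave the levels of the enzymes and readers of both marks. Of 40 genes listed, 39 were tested: 12 were higher in the knockout, 15 were lower and 12 were not called (edgeR's quasi-likelihood test, Benjamini-Hochberg adjusted p under 0.05). Over all genes tested 62.8% were called, 32.8% higher and 30.0% lower, so the count for these lists is close to the background. Their median log2 fold change was -0.01, against 0.00 for all genes.

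EZH2, EED and SUZ12 of PRC2 were lower in the knockout, and EZH1 and RBBP4 were not called. EZH2, the catalytic subunit, was at 34.9, 35.3 and 36.4 CPM in control and 29.1, 29.1 and 30.8 CPM in knockout libraries (log2 fold change -0.26, SE 0.056, adjusted p = 0.00018 in edgeR's quasi-likelihood test). EED, which binds H3K27me3 and stimulates the enzyme, was at 24.2, 21.6 and 21.5 CPM against 17.3, 16.9 and 17.2 CPM. SUZ12, the scaffold subunit, fell from 166 ± 5.82 to 143 ± 5.63 CPM (SD, n = 3 each). None of these 3 overlapped between genotypes, and the share of all genes without overlap was not counted. Of the 11 tested PRC2 genes, 6 were lower, 1 was higher and 4 were not called, with accessory subunits MTF2 at a log2 fold change of -0.39 and JARID2 at -0.23, and PHF1 at 0.39. RBBP7, at -0.11, is among the 6 and lost its call with DESeq2, with no filter, and without control replicate 3 or knockout replicate 2. EZH1 had a log2 fold change of 0.07 and RBBP4 of -0.02. Both H3K27 demethylases were higher, KDM6A by a log2 fold change of 0.17 and KDM6B by 0.55. KDM6B was low and its genotypes overlapped, at 4.45, 5.90 and 4.08 CPM in control and 5.80, 7.60 and 6.85 CPM in knockout libraries.

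Among the H3K9 methyltransferases besides SETDB1, both SUV39 enzymes were lower. SUV39H1 stood at 21.2, 19.6 and 20.6 CPM in control and 15.3, 17.1 and 17.7 CPM in knockout libraries, and SUV39H2 at 31.1, 28.6 and 30.8 against 24.4, 22.6 and 22.2 CPM. Their log2 fold changes were -0.30 and -0.39. EHMT1, an enzyme of H3K9 mono- and dimethylation, was higher at 0.22, and its partner EHMT2 was lower at -0.20 with an adjusted p of 0.021 in edgeR. That call was lost with DESeq2, with no filter, and without control replicate 2 or 3 or knockout replicate 1 or 3. SETDB2, at 0.07, was not called.

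Readers and partners moved in both directions. Of the HP1 proteins, CBX5 rose by a log2 fold change of 0.45, and CBX3 fell by 0.46 and CBX1 by 0.14, the last losing its call with DESeq2, with no filter, and without control replicate 3 or knockout replicate 2. CBX2, a Polycomb reader of H3K27me3, had a log2 fold change of -0.69. ATF7IP, the nuclear partner that stabilises SETDB1, moved most, from 68.0, 61.5 and 65.9 CPM in control to 315, 298 and 290.3 CPM in knockout libraries (log2 fold change 2.21, SE 0.048, adjusted p = 2.0e-24 in edgeR). Of the HUSH genes and their cofactors, TASOR (0.27), PPHLN1 (0.29) and MORC2 (0.25) were higher on the log2 scale, and MPHOSPH8 was not called. TRIM28, the gene of KAP1, was not called either. Of 6 H3K9 demethylases, KDM4B (0.95) and KDM4D (0.76, not called by DESeq2) were higher, KDM3A (-0.36) was lower and 3 were not called. The genes that lie in the switched regions, and the sequence of those regions, were not analysed here.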

How the data were processed

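A549 control and SETDB1 knockout cells were profiled by RNA-seq, ChIP-seq and Hi-C. The deposited gene table gives unnormalized read counts; peak and TAD lists held positions only; the compartment table held a signed score per 100 kb bin, as deposited. Per the submitters' processing notes the build was hg19, and STAR 2.6.1c, edgeR 3.30.0, Bowtie2 2.2.3, SAMtools 1.5, Picard and MACS2 were named without roles. Peak thresholds, pooling of libraries, the counter and its strand setting and the compartment method are not given in the sources used here. Samples were grouped by their titles.

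Peaks were compared in Python 3.11.15 (numpy 2.4.6, pandas 2.3.3, scipy 1.17.1) at an overlap of 1 bp; 28 control and 55 knockout CTCF peaks on sequences other than the main chromosomes were left out. The bin of a region is that of its midpoint. Bins were tested with limma 3.58.1 in R 4.3.3, and counts with edgeR 4.0.16 (quasi-likelihood test with robust dispersion, TMM scaling, genes kept by filterByExpr, no term but genotype), with Benjamini-Hochberg adjustment over all bins or genes at 0.05; CPM used TMM-scaled library sizes. DESeq2 1.42.0 was an alternative. Both fits were tested on simulated data. Of 62486 gene IDs, 93.8% had a symbol, and PECAM1 of the marker lists matched none. No RNA-seq libraries agreed within sampling noise, so none were merged. Input libraries were not used here.

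The named genes were SETDB1 and members of lists of H3K27 and H3K9 methylation genes; named regions were the longest runs, the widest regions, the new H3K9me3 peaks and TADs with most members, and those nearest the threshold; the choice among these for printing followed a look at their values. Regions, classes and lists were chosen with earlier results of these data known.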

Additional observations from a re-analysis of the deposited data

How the results depend on the processing

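Of 235 recomputed values of the main comparisons, 208 stayed within the limits set for them and 27 moved. Shares were held to their Wilson interval and counts to a set ratio, so neither had a direction to turn. Changes of compartment signal were held to their sign alone, and none turned. With at least 50% of a region inside new H3K9me3, 97.6% were in B in control cells, 2.32% went from A to B, H3K4me3 met 1.19% and 0.550% in control and knockout, H3K27ac 0.0330% in knockout, and 3.68% and 2.95% lay near a TAD edge. Peaks merged within 1 kb gave H3K4me3 1.99% in control and CTCF 1.99% and 2.75%. Autosomes alone gave 97.6% in B and 2.32% from A to B. Control peaks of at least the median width left 5216 regions, 99.9% in B in knockout cells, 44 bins called higher, H3K4me3 at 2.47% and 1.61%, H3K27ac at 0.153% in knockout, and CTCF at 2.72% and 3.51%. Marks within 1 kb gave H3K4me3 2.56% and 1.47%, H3K27ac 0.0448% in control, and CTCF 3.34% and 3.96%. TAD edges within 40 kb gave 8.95% and 7.61%. These are other region sets or windows, so some movement is built in. H3K4me3 was lower in knockout cells under each of these settings.

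Leaving out each Hi-C library in turn gave 2180 to 2375 bins lower and 54 to 71 higher, a mean change of -0.323 to -0.318, 97.0 to 97.1% in B in control and 99.9% in knockout cells, 2.81 to 2.94% from A to B and 0.0543 to 0.0905% from B to A. The differences of change ranged from -0.274 to -0.267 against lost peaks without H3K9me3, 0.0250 to 0.0256 against those with partnered H3K9me3, -0.169 to -0.165 against kept peaks with new H3K9me3 and -0.240 to -0.233 against other kept peaks. Leaving out each RNA-seq library gave 23 to 30 listed genes called, 12 to 14 higher and 11 to 16 lower. Where 1 library of a genotype was left, its spread was taken from the other genotype.

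Replicate numbers did not pair the libraries: deviations of same-numbered libraries correlated at 0.111, 0.0641 and 0.0467 in RNA-seq and -0.00257 in Hi-C. With the number as a replicate block, 2424 bins were lower, 78 were higher and 28 listed genes were called, 13 higher and 15 lower.

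Of the single genes, 4 that were not called changed sign: KDM3B with upper quartile scaling (log2 fold change -0.0101), RBBP4 with DESeq2 (0.000714) and no filter (0.0193), CBX8 with DESeq2 (0.0114), no filter (0.0328) and 3 of 6 libraries left out in turn (range -0.0503 to 0.0512), and CBX7 without knockout replicate 1 (range over libraries left out -0.207 to 0.127). In 21 further cases a called gene lost its call, EHMT2 and CBX6 in 6 settings each, and in 7 an uncalled gene gained one.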
